A study of Saccharomyces cerevisiae with 61 samples.

Results

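The 66 genes described here are the yeast genes whose probe symbol is UTP, NOP, RRP, NOC, NUG or DBP followed by a number, out of 6249 features on the arrays, each member measured by 1 probe. Their symbols and locus tags all matched the reference annotation R64. By their textbook roles, 30 belong to the small-subunit processome and related factors of the 40S precursor, 22 to factors of the 60S precursor, 4 to the core of the small nucleolar ribonucleoproteins (snoRNPs) and 7 to the RNA exosome. The last 3 members, DBP1, DBP2 and DBP5, share the DEAD-box helicase name but are known mainly for work on messenger RNA outside the nucleolus. By role, the name of the group therefore suits most members better than these 3, which are followed separately below. Across the treated samples, however, DBP2 varied with the median of the other members (r = 0.855), unlike DBP1 (r = -0.413) and DBP5 (r = -0.157).

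The series measured total RNA of budding yeast, strain BY4741, synchronised by mating pheromone arrest, on 61 2-colour arrays that set one sample against another in loops. Wild-type cells received methyl methanesulfonate (MMS) at 0.033%, hydroxyurea (HU) at 0.2 M, camptothecin (CPT) at 50 µM or no agent (UT), and were sampled at 30, 45, 60 and 75 min. Cells of rad53Δ, which lack the checkpoint kinase gene RAD53, were sampled in HU, MMS or UT at 30 and 75 min. Cells of galsicΔP nrm1Δ were sampled without agent at 40 and 100 min, and their parent galsicΔP at 0, 40 and 100 min. The labels do not explain the name galsicΔP, and both strains carry it. Wild-type and rad53Δ replicate 1 each also had 1 untreated sample at 0 min. The title of the series asks how replication stress acts on G1/S genes through Rad53 and the corepressor Nrm1. The members are not G1/S genes, and the same comparisons are described for them here.

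Ribosomes are assembled in the nucleolus, where RNA polymerase I makes a long precursor of the ribosomal RNAs. The small-subunit processome, built around the U3 snoRNA, folds and cuts the part that becomes the 40S subunit, while other factors mature the 60S precursor, and the exosome trims RNA ends. In budding yeast the genes for these factors form a large coregulated set, often called the Ribi regulon, which is known for high expression in growing cells and for repression in many stresses.

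Each value below is a log2 ratio, taken from arrays that hold 2 replicates of each condition at each time. For an agent it is the treated over the untreated sample of the same strain, replicate and time. "Fell" and "rose" are used where limma, fitted across all features, gave an adjusted p under 0.05. The base of the logarithm is not given in the sources used here and was taken as 2. The small number of arrays limits the precision, with a median standard error (SE) of 0.0817 in wild type, 0.116 in rad53Δ and 0.163 for differences between these strains. Separate cultures are not stated in the labels, so each p-value reflects the scatter of these samples alone, which may be technical. A mean over several times treats every time as its own sample, and its SE can be too small. In bulk RNA, a shift in the share of cells at a given cycle stage and a change of RNA within each cell cannot be told apart.

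HUG1, a gene induced by the replication checkpoint, stood at 0.12 ± 0.47 in HU and -0.65 ± 0.47 in MMS in rad53Δ, against 3.88 ± 0.33 in HU and 2.36 ± 0.33 in MMS in wild type. NRM1 stood at -4.17 ± 0.19 in galsicΔP nrm1Δ over its parent. RAD53 itself checks nothing in rad53Δ, because every array of that strain holds rad53Δ RNA in both channels. For 2 wild-type arrays, MMS at 0 min in the title stood against an untreated sample in the other labels, and the untreated reading was used. On 1 rad53Δ array of replicate 2 the labels give both 30 and 75 min, and 30 was used. On 6 arrays of the galsicΔP strains both channels carry 1 genotype label, and the titles, which NRM1 matches, were used. The 2 wild-type replicates of CPT differed in their responses (r = 0.038 across all features, which are not independent), against r = 0.675 for HU and r = 0.848 for MMS.

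HU, which blocks ribonucleotide reductase and so starves replication of nucleotides, was followed by lower levels of most members in wild type. Over the 4 times, 56 of 66 members fell (background: 17.3% of all features fell) and 1 rose (background: 15.8%), with a median of -0.35 over the members and 0.00 over all features. The falls were modest: the member values ran between -1.01 and 0.23, and 1 member, DBP2, passed a 2-fold change. Of the processome genes, 27 of 30 fell (median -0.36), and of the 60S precursor genes 20 of 22 (median -0.37).

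UTP20 (YBL004W), which encodes a very large scaffold protein of the processome, showed the lowest value of its group in HU. Its responses at 30, 45, 60 and 75 min were -0.01, -0.53, -1.52 and -1.79 in replicate 1 and 0.09, -0.62, -1.003 and -0.97 in replicate 2. All 6 values from 45 min on lay below 0, and the mean was -0.80 ± 0.11 (limma adjusted p = 9.8e-06). UTP10, of the tUTP complex that binds the precursor first, had -0.59 ± 0.10, and UTP13, of the UTP-B complex, -0.52 ± 0.07. Among 60S factors, NOP16 gave 0.00, -0.76, -1.12 and -1.56 in replicate 1 and 0.28, -0.75, -0.53 and -0.86 in replicate 2. It had the lowest mean of its group, -0.66 ± 0.09, and NOP15 stood at -0.55 ± 0.09. NOC2, part of a complex that accompanies the 60S precursor out of the nucleolus, had -0.45 ± 0.07. The helicase gene DBP3 had -0.46 ± 0.07, the GTPase gene NUG1 -0.37 ± 0.07, the rRNA methyltransferase gene NOP2 -0.37 ± 0.08 and NOP7, the yeast pescadillo, -0.36 ± 0.09. RRP5, which is needed for both subunits, had -0.35 ± 0.07.

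The 9 members that did not pass in HU were 3 processome genes, 2 of 60S factors, 2 of the snoRNP core, RRP46 of the exosome and DBP5. Within the snoRNP core, NOP1 (the methyltransferase fibrillarin) stood at -0.35 ± 0.07 and NOP10, of the pseudouridylation snoRNPs, at -0.46 ± 0.11, both called, while NOP58 at -0.33 ± 0.14 (adjusted p = 0.074) and NOP56 at -0.06 ± 0.14 (adjusted p = 0.79) did not pass. Of the exosome genes, 6 of 7 fell, with RRP6, the nuclear 3′ exonuclease, at -0.46 ± 0.05 and the cap subunit gene RRP4 at -0.15 ± 0.05. UTP22, of the UTP-C complex, stood at -0.11 ± 0.11 (adjusted p = 0.51). UTP21 at -0.25 ± 0.13, RRP3 at -0.13 ± 0.08, NOP8 at -0.19 ± 0.07 and RRP14 at -0.31 ± 0.17 were the others. Without wild-type replicate 2 the members that fell in HU numbered 33, and with 1 value per replicate and treatment 32.

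The tUTP genes UTP4, UTP5, UTP8, UTP9, UTP10 and UTP15 stood between -0.59 and -0.25, and all 6 fell. Of the UTP-B genes, UTP6 at -0.33 ± 0.09, UTP13 and UTP18 at -0.38 ± 0.08 fell, and UTP21 did not pass. UTP23, UTP25, NOP9, NOP14 and RRP9, which encodes a U3 snoRNP protein, stood between -0.59 and -0.28, all called. The DBP helicases of the nucleolus fell too, with DBP8 at -0.49 ± 0.06, DBP7 at -0.47 ± 0.08, DBP10 at -0.36 ± 0.07, DBP9 at -0.29 ± 0.09 and DBP6 at -0.24 ± 0.08.

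MMS, which methylates DNA, was followed by lower levels of nearly the whole nucleolar group, and by larger falls. Over the 4 times, 59 of 66 members fell (background: 30.2% of all features fell) and 2 rose (background: 28%), with a median of -0.62 over the members and -0.02 over all features. In this comparison 8 members fell by more than 2-fold, a cutoff for which the share of all features is not given. All 22 genes of 60S factors fell (median -0.71), as did 28 of 30 processome genes (median -0.62) and 5 of 7 exosome genes (median -0.25).

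RRP12 (YPL012W), an export factor of both subunits, was among the lowest members in MMS. Its responses at 30, 45, 60 and 75 min were -0.33, -0.89, -1.88 and -2.13 in replicate 1 and 0.18, -1.86, -1.54 and -2.37 in replicate 2. The RRP12 mean was -1.35 ± 0.13 (adjusted p = 3.8e-09), a 2.55-fold lower level. UTP20 gave -0.63, -1.09, -2.32 and -2.40 in replicate 1 and -0.27, -1.64, -1.18 and -1.59 in replicate 2, with a mean of -1.39 ± 0.11. In both genes every value from 45 min on was below 0, and those of UTP20 were lowest at 75 min in replicate 1 and at 45 min in replicate 2.

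Among 60S factors, DBP3 (YGL078C) gave -0.09, -0.97, -1.30 and -1.64 in replicate 1 and -0.04, -1.61, -1.36 and -2.10 in replicate 2 of MMS at the same times. Its mean was -1.14 ± 0.07 (adjusted p = 3.3e-12), and every value from 45 min on was below 0. NOP2 had -0.94 ± 0.08, NOP7 -0.72 ± 0.09, NOC2 -0.70 ± 0.07 and NUG1 -0.59 ± 0.07. RRP5 had -1.13 ± 0.07, UTP10 -0.85 ± 0.10 and UTP13 -0.71 ± 0.07. In the snoRNP core, NOP1 had -0.72 ± 0.07 and NOP58 -0.65 ± 0.14, both called.

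The helicase genes DBP7, at -1.07 ± 0.08, and DBP10, at -0.99 ± 0.07, lay close to DBP3, while DBP9 had -0.55 ± 0.09 and DBP6 -0.44 ± 0.08. RRP8 had -0.998 ± 0.07, NOP15 -0.93 ± 0.09 and NOP4 -0.91 ± 0.09. The smallest falls among 60S genes were those of NOC3 at -0.27 ± 0.09 and RRP1 at -0.29 ± 0.06. RRP1 gave 0.75, 0.02, -0.51 and -0.94 in replicate 1 and 0.20, -0.12, -0.68 and -1.08 in replicate 2, so its mean joins values above 0 at 30 min with values near -1 at 75 min. NOP6, a processome factor, gave -0.40, -0.81, -1.31 and -1.42 in replicate 1 and -0.61, -0.68, -1.19 and -1.68 in replicate 2, below 0 in all 8 samples, against -0.26 as its mean in HU. Of the tUTP genes all 6 fell in MMS, between -0.85 and -0.46, and of the UTP-B genes all 4, with UTP21 at -0.54 ± 0.13.

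Of the nucleolar and exosome members, 5 did not pass in MMS. They were UTP22 at -0.20 ± 0.11, RRP3 (a helicase of 40S maturation) at -0.03 ± 0.08, NOP56 at -0.18 ± 0.14, RRP46 at -0.13 ± 0.06 and RRP4 at -0.05 ± 0.05. The adjusted p-values of these 5 ran between 0.076 for RRP46 and 0.77 for RRP3. UTP22 had -0.03, -0.02, -0.30 and -0.05 in replicate 1 and 0.32, -0.76, -0.24 and -0.49 in replicate 2, and NOP56, a core protein of the methylation-guide snoRNPs, had -0.39, -0.13, 0.18 and 0.07 in replicate 1 and 0.31, -0.30, -0.36 and -0.79 in replicate 2. The replicates of NOP56 disagreed in sign at 3 of 4 times. RRP6 was the lowest exosome member at -0.47 ± 0.05, followed by RRP40 at -0.34 ± 0.11 and RRP43 at -0.28 ± 0.09.

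**Figure D1:**
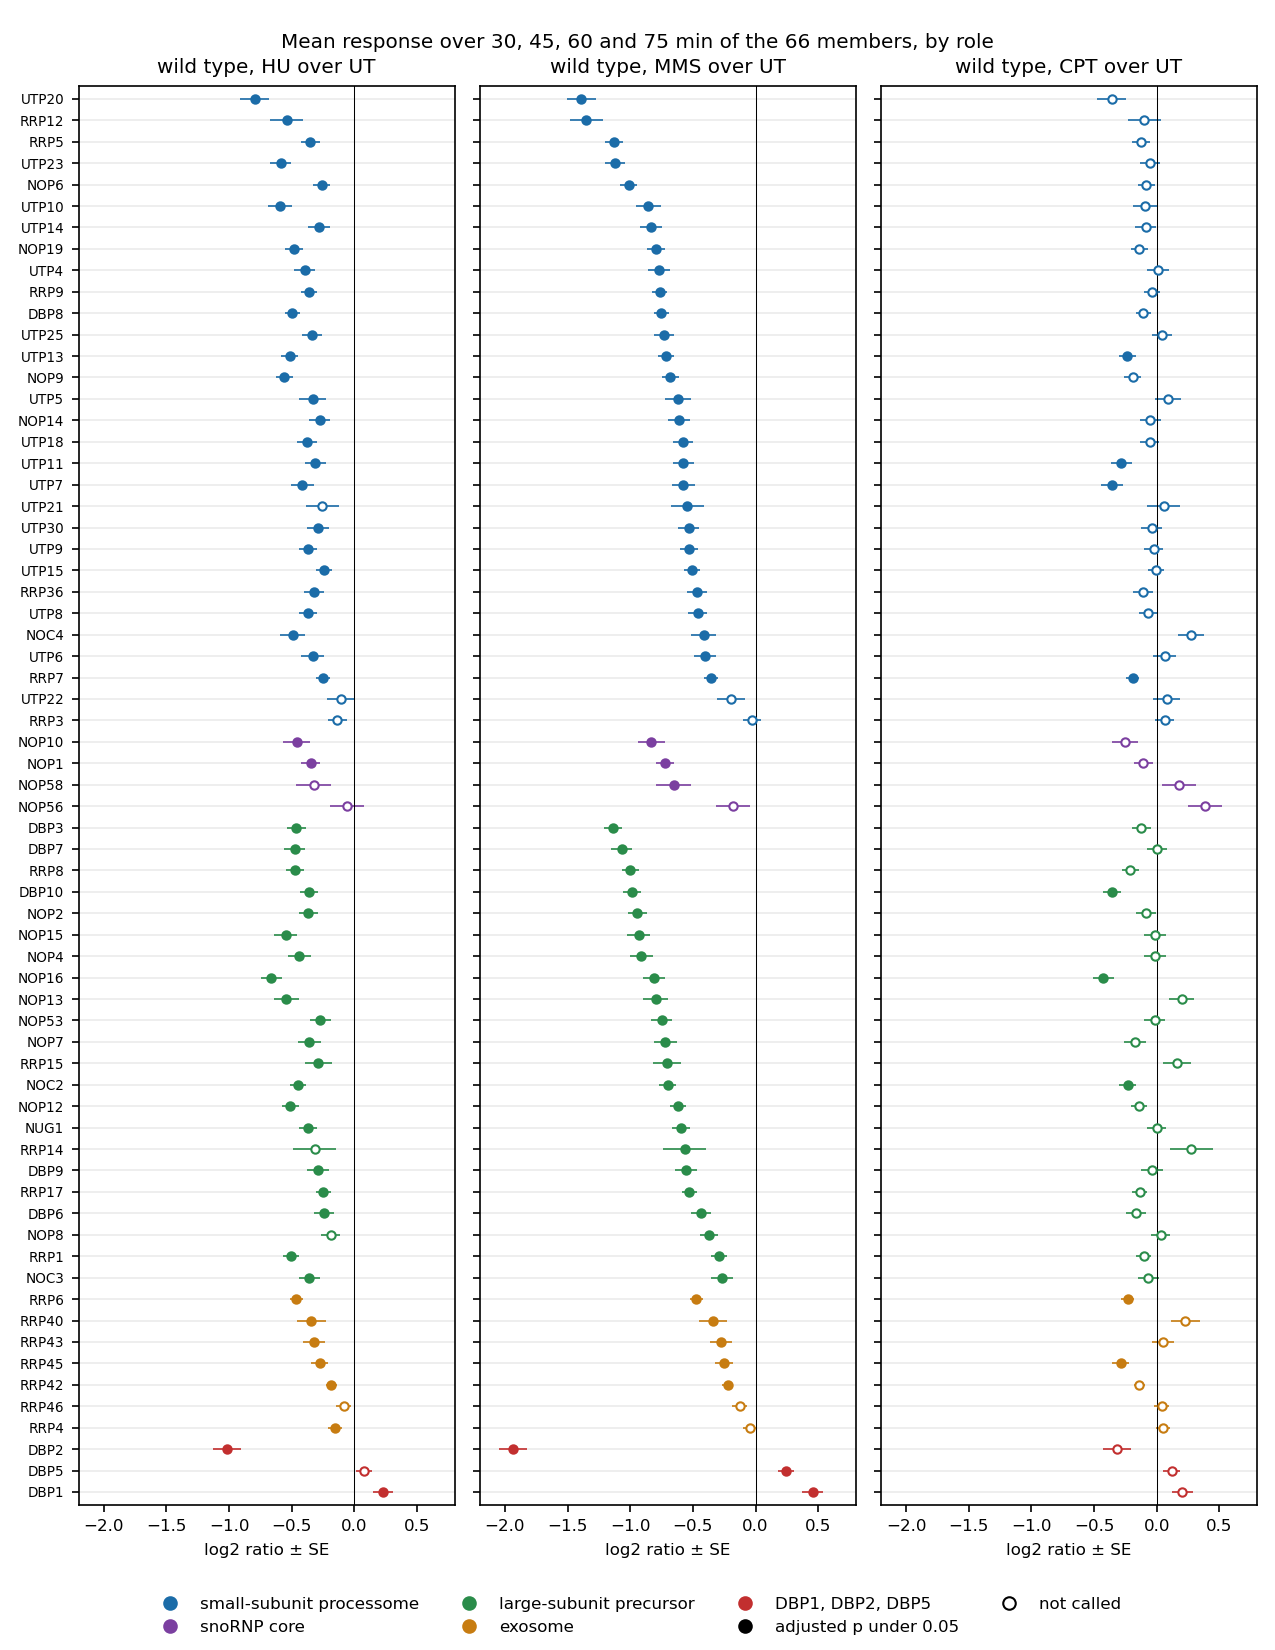
Mean log2 response over 30, 45, 60 and 75 min of each member in wild type, HU, MMS and CPT over untreated, with the SE as a bar, ordered by role and by the MMS value. Filled points passed the test; MMS values of the 60S group lie between -1.14 and -0.27, and DBP2 and DBP1 mark the ends of the scale.

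Set against each other, MMS gave lower values than HU in wild type for 37 of 66 members (background: 20.7% of all features lower) and higher values for 3 (background: 20.5%), with a median difference of -0.26. By role, 15 of 22 60S genes and 19 of 30 processome genes were lower in MMS, and 0 of 7 exosome genes by limma's adjusted p (0 lower and 1 higher at an unadjusted p under 0.05). The log2 difference, MMS minus HU, was -0.93 ± 0.11 for DBP2, -0.81 ± 0.13 for RRP12, -0.78 ± 0.07 for RRP5, -0.75 ± 0.07 for NOP6 and -0.67 ± 0.07 for DBP3. UTP13 differed by -0.20 ± 0.07. The 3 members that were higher in MMS were DBP1 at 0.23 ± 0.08, RRP1 at 0.21 ± 0.06 and DBP5 at 0.16 ± 0.07. The exosome genes RRP6, at -0.01 ± 0.05, and RRP40, at 0.00 ± 0.11, had nearly equal values in both agents. MMS, HU and CPT share the untreated samples, which cancel in these differences. The count of 37 was 21 with 1 value per replicate and treatment.

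CPT, a topoisomerase I poison, was followed by few calls among the members. In the mean of both wild-type replicates, 9 of 66 members fell (background: 3.54% of all features fell) and 0 rose by limma's adjusted p, with 17 lower and 3 higher at an unadjusted p under 0.05. Those called were NOP16 at -0.43 ± 0.09, DBP10 at -0.36 ± 0.07, UTP7 at -0.36 ± 0.09, RRP45 at -0.29 ± 0.07, UTP11, UTP13, NOC2, RRP6 and RRP7. Each of these 9 had a mean below 0 in both replicates, such as -0.53 and -0.32 for NOP16 and -0.23 and -0.24 for UTP13. The 9 were called on these same replicates, so the shared sign is no further support. The members as a whole differed between replicates: their median was 0.08 in replicate 1, where 22 of 66 values lay below 0, and -0.21 in replicate 2, where 64 did. The count was 1 without replicate 1, 0 with 1 value per replicate and treatment, 2 with a fit per strain set and 17 with arrays fitted directly. Set against HU, CPT gave higher values for 48 of 66 members (background: 15.8% of all features higher), with a median difference of 0.29.

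The falls in wild type came after 30 min. In HU, 0 of 66 members were called lower at 30 min by limma's adjusted p (0 at an unadjusted p under 0.05; background: 0.16% of all features lower), 18 at 45 min (background: 2.59%), 27 at 60 min (background: 5.46%) and 50 at 75 min (background: 9.46%). Their medians at these times were 0.06, -0.44, -0.40 and -0.65. In MMS, 2 members, DBP2 and NOP6, were lower at 30 min (background: 4.51%), 46 at 45 min (background: 14.3%), 55 at 60 min (background: 17.9%) and 57 at 75 min (background: 20.7%). RRP1, a 60S factor, was higher in MMS at 30 min, at 0.47 ± 0.13. The MMS medians were 0.03, -0.63, -0.80 and -1.13. Replicate medians in MMS were 0.07 and 0.04 at 30 min and -0.96 and -1.21 at 75 min, and in HU 0.04 and 0.07 at 30 min and -0.49 and -0.76 at 75 min, so both replicates were lower at the later time. In CPT, 1 member, RRP42, was lower at 75 min, at -0.45 ± 0.09 (background: 0.704%).

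The change of the response with time was tested itself. In HU the response at 75 min was lower than at 30 min for 34 of 66 members (background: 4.19% of all features lower), with a median difference of -0.69, and in MMS for 56 (background: 11.3%), with a median of -1.10. In CPT it was lower for 1 (background: 0.96%). RRP8, a methyltransferase of the large ribosomal RNA, differed by -1.23 ± 0.20 in HU and -1.69 ± 0.20 in MMS. NOC2 differed by -1.01 ± 0.18 in HU and -1.62 ± 0.18 in MMS. At 75 min alone, 39 members stood more than 2-fold below untreated in MMS, with DBP2 at -2.85 ± 0.22, RRP12 at -2.25 ± 0.26, UTP20 at -1.99 ± 0.23 and DBP3 at -1.87 ± 0.15. The share of all features past 2-fold is not given beside this count of 39. In HU the lowest at 75 min were DBP2 at -1.60 ± 0.22, UTP20 at -1.38 ± 0.23 and NOP16 at -1.21 ± 0.17. RRP42, an exosome ring subunit gene with a small mean response, differed by -0.82 ± 0.12 in HU and -0.93 ± 0.12 in MMS. The count for the time difference in HU was 8 without wild-type replicate 2 and 9 without the replicate block, and 55 with arrays fitted directly.

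**Figure D2:**
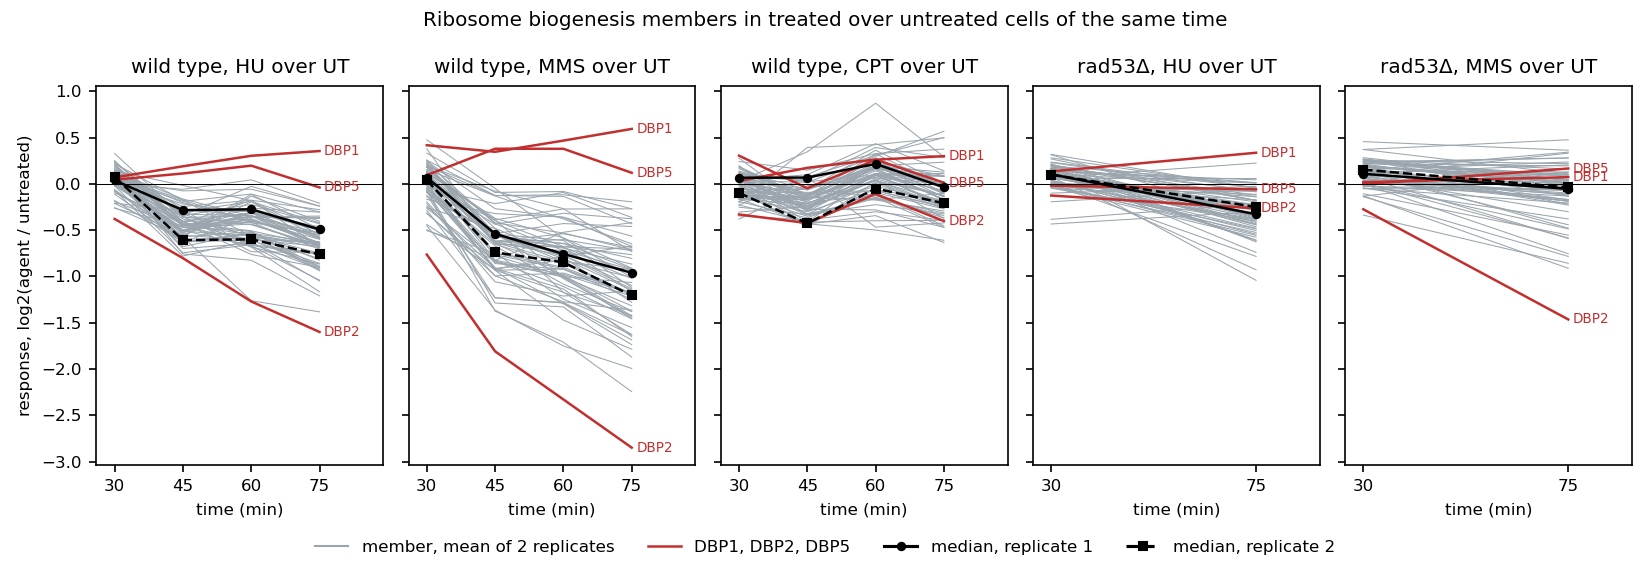
Log2 ratio of treated over untreated cells against time for each member (thin lines, mean of 2 replicates) and the member median of each replicate (black), in wild type with HU, MMS and CPT and in rad53Δ with HU and MMS. The wild-type medians lie near 0 at 30 min and at -0.65 in HU and -1.13 in MMS at 75 min, while the rad53Δ medians at 75 min are -0.27 and -0.04.

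The treated samples were also set against the 0 min sample. In wild-type replicate 1, the only one with this sample, the member median at 30, 45, 60 and 75 min was 0.26, -0.42, -0.55 and -0.88 in MMS, 0.21, -0.18, -0.12 and -0.50 in HU, and 0.18, 0.09, 0.15 and 0.02 in UT. At 75 min, 64 of 66 members in MMS and 64 in HU lay below the 0 min sample, against 31 in UT. UTP20 stood at 0.48, -0.08, -0.78 and -1.01 in MMS, at 1.098, 0.48, 0.02 and -0.41 in HU and at 1.11, 1.01, 1.55 and 1.39 in UT. DBP3 stood at 0.20, -0.85, -1.04 and -1.50 in MMS and at 0.29, 0.11, 0.26 and 0.14 in UT. These levels come from 1 replicate and have no test, and the counts below the 0 min sample stand without the share of all features.

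In rad53Δ replicate 1 the median of the members lay above that strain's own 0 min sample in every condition, with 2 and 4 of 66 members below it at 30 and 75 min in MMS, 3 and 12 in HU, and 1 and 2 in UT. The median at 30 and 75 min was 0.63 and 0.60 in MMS, 0.68 and 0.29 in HU, and 0.62 and 0.71 in UT. No array joins rad53Δ with wild type, so the 0 min levels of the strains were not compared. The rad53Δ counts also stand without the share of all features.

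**Figure D3:**
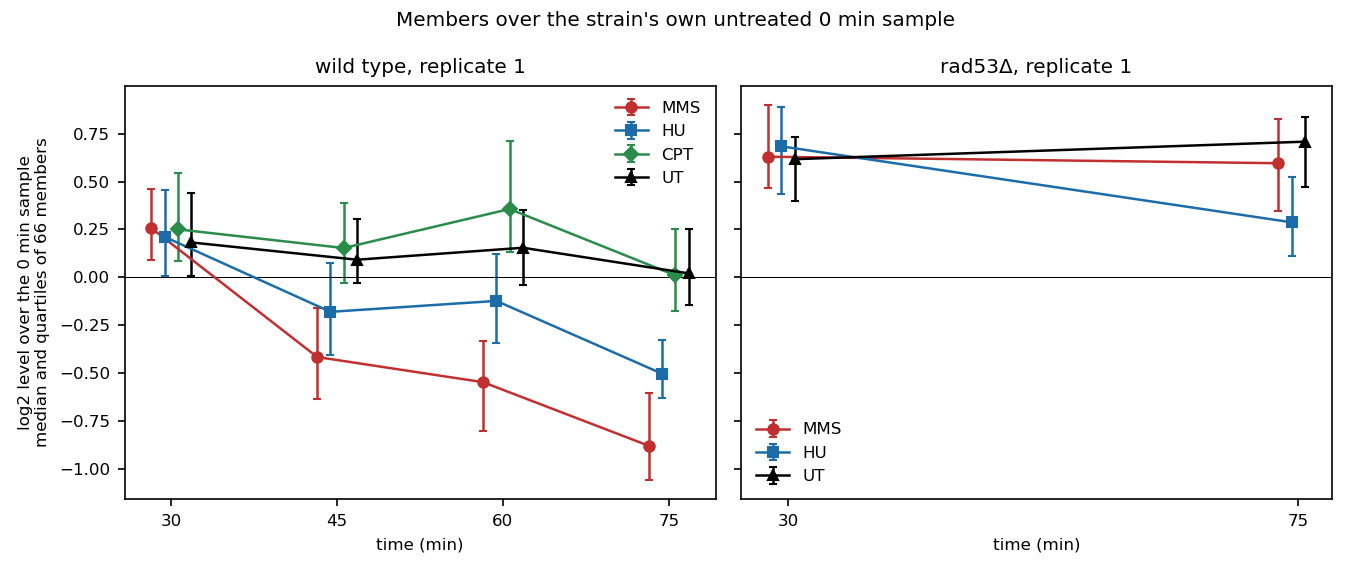
Median and quartiles over the 66 members of the log2 level over the strain's own untreated 0 min sample, against time, in wild-type replicate 1 and rad53Δ replicate 1. Wild-type cells reach -0.88 in MMS and -0.50 in HU at 75 min with UT at 0.02, and the rad53Δ medians stay above 0.

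Deletion of RAD53 was set against wild type to ask which responses need the kinase. In rad53Δ, MMS was followed by a fall of 4 of 66 members (background: 4.78% of all features fell) and a rise of 3 (background: 8.59%) over 30 and 75 min, with a median of 0.05. The share of members that fell lay near that of all features, and the share that rose lay below it. Those that fell were DBP2 at -0.87 ± 0.16, NOP10 at -0.60 ± 0.15, RRP5 at -0.52 ± 0.10 and DBP3 at -0.38 ± 0.11, and those that rose were RRP3 at 0.42 ± 0.11, RRP36 at 0.41 ± 0.11 and RRP6 at 0.24 ± 0.07. The members that fell numbered 1 without rad53Δ replicate 1, 0 without replicate 2 and 2 without the replicate block, but 10 with a fit per strain set and 9 with arrays fitted directly.

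The response to MMS was higher (less negative or above 0) in rad53Δ than in wild type for 43 of 66 members (background: 3.92% of all features higher), by a test of the difference over 30 and 75 min, with a median difference of 0.56 over the members and 0.01 over all features. By role, 18 of 22 60S genes, 21 of 30 processome genes, 3 of 7 exosome genes and 0 of 4 snoRNP core genes passed. In the snoRNP core 1 gene was higher at an unadjusted p under 0.05, and the differences were between 0.24 and 0.42 with SEs up to 0.28. At 30 min the difference passed for 0 members (1 at an unadjusted p under 0.05; background: 0.016%) and at 75 min for 52 (background: 5.52%), with a median of 1.04.

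The values at 75 min show the size of the difference. RRP12 had -0.18 and -0.42 in rad53Δ with MMS, against -2.13 and -2.37 in wild type with MMS, and its difference of 1.94 ± 0.37 was the highest of the members (adjusted p = 0.001). NOC2 had -0.05 and -0.04 in rad53Δ, against -1.36 and -1.52 in wild type (difference 1.39 ± 0.18). In both genes the strains did not overlap. RRP5 had -0.81 and -1.02 in rad53Δ, against -1.54 and -2.03 in wild type (difference 0.87 ± 0.21), so it was lower than untreated in both strains and less so in rad53Δ. DBP2, the lowest in both, had -1.28 and -1.65 in rad53Δ, against -2.21 and -3.49 in wild type (difference 1.39 ± 0.31). At this time 8 members fell in rad53Δ with MMS (background: 6.72%), namely DBP2, RRP5, NOP10, UTP20, DBP3, NOP6, RRP8 and NOP2.

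The number of calls for the MMS difference rested on both rad53Δ replicates. It was 2 without rad53Δ replicate 1, 8 without replicate 2 and 25 without wild-type replicate 2, while the median difference stayed between 0.46 and 0.62 under all alternatives run. With arrays scaled to 1 spread the count was 16, and without the replicate block 10.

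HU was compared between the strains in the same way. In rad53Δ, 4 of 66 members fell over both times (background: 3.18% of all features fell), UTP4, DBP8, RRP7 and RRP6, and 18 fell at 75 min (background: 7.65%). The count of 4 was 0 without either rad53Δ replicate and 2 without the replicate block, but 20 with a fit per strain set and 11 with arrays fitted directly, and that of 18 at 75 min was 8 without the replicate block, 34 with a fit per strain set and 29 with arrays fitted directly. The lowest at 75 min were UTP4, of the tUTP complex, with -1.24 and -0.85 in rad53Δ with HU, against -0.47 and -0.86 in wild type with HU, and DBP8, a 40S helicase, with -0.97 and -0.89 in rad53Δ, against -0.62 and -0.66 in wild type. The strains overlapped in UTP4 and not in DBP8, and the difference between strains did not pass for either (adjusted p = 0.41 for UTP4 and 0.31 for DBP8). The HU response of the strains differed for 1 of 66 members over both times, UTP13, at 0.49 ± 0.13 (background: 1.41% of all features higher in rad53Δ), a count near that share. This call was lost when any 1 replicate of either strain was left out or without the replicate block, while arrays fitted directly gave 17 members. At 75 min the HU response differed for 5 (background: 4.19%), DBP2 at 1.34 ± 0.31, NOP7 at 0.92 ± 0.25, UTP13 at 0.87 ± 0.19, DBP10 at 0.77 ± 0.20 and RRP1 at 0.68 ± 0.18, a count that was 1 without the replicate block and 32 with arrays fitted directly. The median difference over members was 0.19 over both times and 0.34 at 75 min. Whether the MMS and the HU differences themselves differ was not tested.

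**Figure D4:**
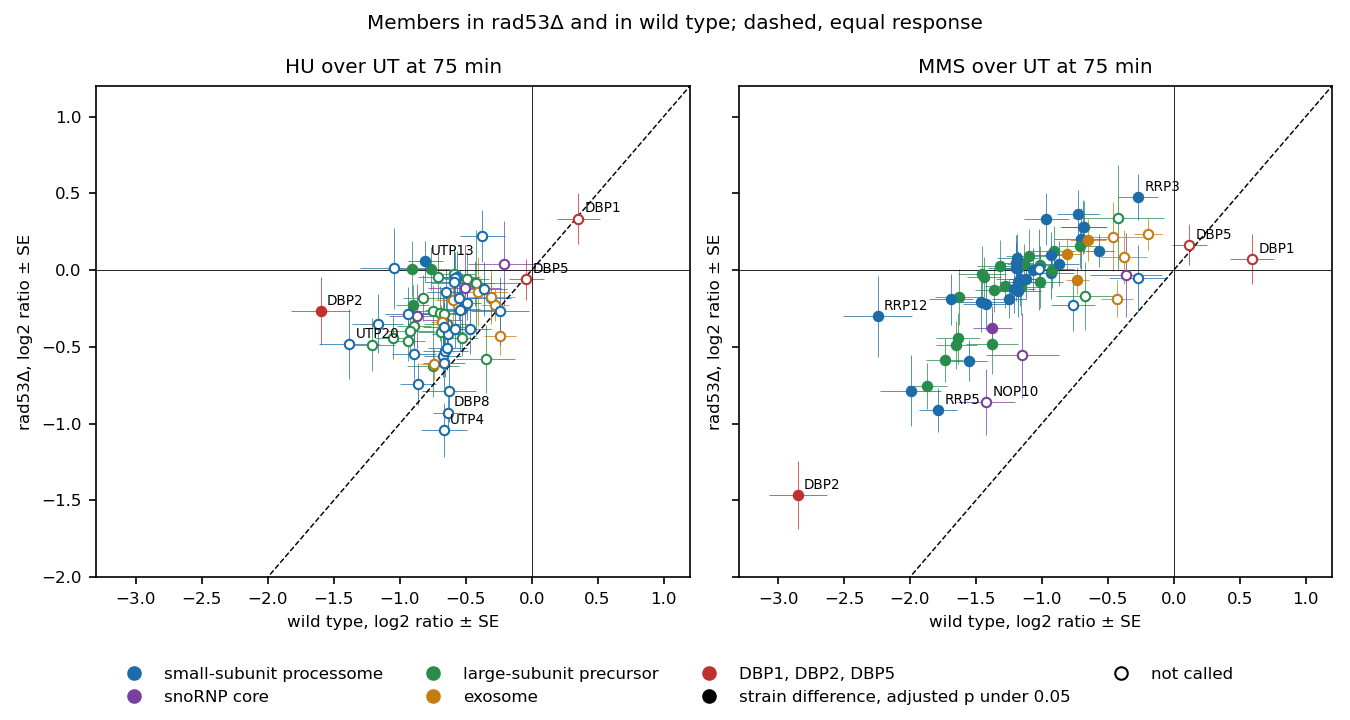
Log2 response at 75 min of each member in rad53Δ (vertical axis) against wild type (horizontal axis) for HU and MMS, with SEs as bars and equal response dashed. In MMS 52 members are called higher in rad53Δ (filled) and all members but DBP1 lie above the line, while in HU 5 are called.

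Genes of the general stress response, a list chosen with earlier results of these data known, rose in the wild-type samples in which members fell. Of 20 stress-induced genes, 20 rose in wild-type MMS (median 1.01; background: 28%) and 18 in wild-type HU (median 0.72; background: 15.8%). In rad53Δ their median was 0.12 in MMS, where 5 rose (background: 8.59%), and 0.39 in HU, where 4 rose (background: 3.97% of all features rose). The rad53Δ values cover only the first and last of the times behind the wild-type values, with a larger SE. The medians and counts of the strains are therefore not like for like, and no strain difference is given for these genes. The part of the stress response in the level of the members was not tested.

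Deletion of NRM1, the corepressor of MBF targets, was compared with the parent galsicΔP at 40 and 100 min. Over both times 25 of 66 members were higher in galsicΔP nrm1Δ (background: 14.5% of all features higher) and 1, RRP6 at -0.22 ± 0.07, was lower (background: 17.2%), with a median of 0.24 over the members and -0.02 over all features. The members called higher were 11 of 30 processome genes, 10 of 22 60S genes, 3 of 7 exosome genes, 0 of 4 snoRNP core genes (1 at an unadjusted p under 0.05) and DBP2. The highest was DBP2, at 0.71 and 1.44 in the 2 loops at 40 min and 0.85 and 1.24 at 100 min, all above 0 (mean 1.06 ± 0.16, adjusted p = 1.8e-05). UTP5, of the tUTP complex, had 0.61 and 0.94 at 40 min and 0.61 and 0.70 at 100 min, with a mean of 0.72 ± 0.15. UTP6 had 0.56 ± 0.12, RRP1 0.51 ± 0.09, DBP8 0.51 ± 0.08 and the exosome gene RRP4 0.47 ± 0.07. The lowest were UTP22 at -0.34 ± 0.16 (adjusted p = 0.094), UTP20 at -0.32 ± 0.16 (adjusted p = 0.14) and RRP6.

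At 40 min 15 members were higher (background: 11.3%) and 2, DBP1 and RRP6, lower (background: 13.3%), and at 100 min 5 were higher (background: 3.3%), namely DBP2, RRP36, RRP4, RRP1 and DBP8. Medians were 0.12 and 0.27 in the 2 loops at 40 min, and 0.33 and 0.17 at 100 min. The count of 25 became 11 without the first loop, 12 without the second, 16 without the replicate block, 15 with a fit per strain set and 0 with arrays scaled to 1 spread, and 38 with arrays fitted directly. Of the 20 stress-induced genes, 17 were lower in galsicΔP nrm1Δ (median -0.77; background: 17.2%), a shift whose part in the members' values was not tested. Each loop pairs extracts of different replicate numbers of the strains.

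The parent galsicΔP was also compared with its own earlier times. At 40 min over 0 min, 42 of 66 members were higher (background: 28.8% of all features higher) and 5 lower (background: 28.5%), with a median of 0.72 and values between -1.98 and 2.58. All 4 snoRNP core genes rose (median 2.13). NOP56 stood 2.78 and 2.44 above the 2 extracts of 0 min, NOP58 2.39 and 1.88, and NOP1 2.23 and 2.43. UTP22, which did not pass in wild-type HU or MMS, had 2.15 ± 0.23 here, UTP10 1.69 ± 0.20 and RRP5 1.65 ± 0.15. The 5 that were lower were DBP1 at -1.98 ± 0.17, NOP16 at -1.19 ± 0.18, RRP14 at -0.88 ± 0.36, NOP19 at -0.79 ± 0.15 and RRP4 at -0.44 ± 0.11.

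The 0 min extracts of galsicΔP stood apart. Both lie in the first loop, where 1 extract of 40 min faces them, and 132 of 135 ribosomal protein genes were higher at 40 min (background: 28.8%), with a median of 4.07. With arrays scaled to 1 spread, 6 members were higher. From 40 to 100 min 29 members were higher (background: 13.5%) and DBP1 lower at -0.58 ± 0.16 (background: 14.4%), with a median of 0.40 while the ribosomal protein median was 0.04. DBP2 was highest at 1.56 ± 0.22, with UTP23 at 0.98 ± 0.17, UTP5 at 0.86 ± 0.21 and DBP8 at 0.81 ± 0.11. The count of 29 was 2 without the second loop, 14 without the replicate block, 15 with a fit per strain set and 7 with arrays scaled to 1 spread.

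**Figure D5:**
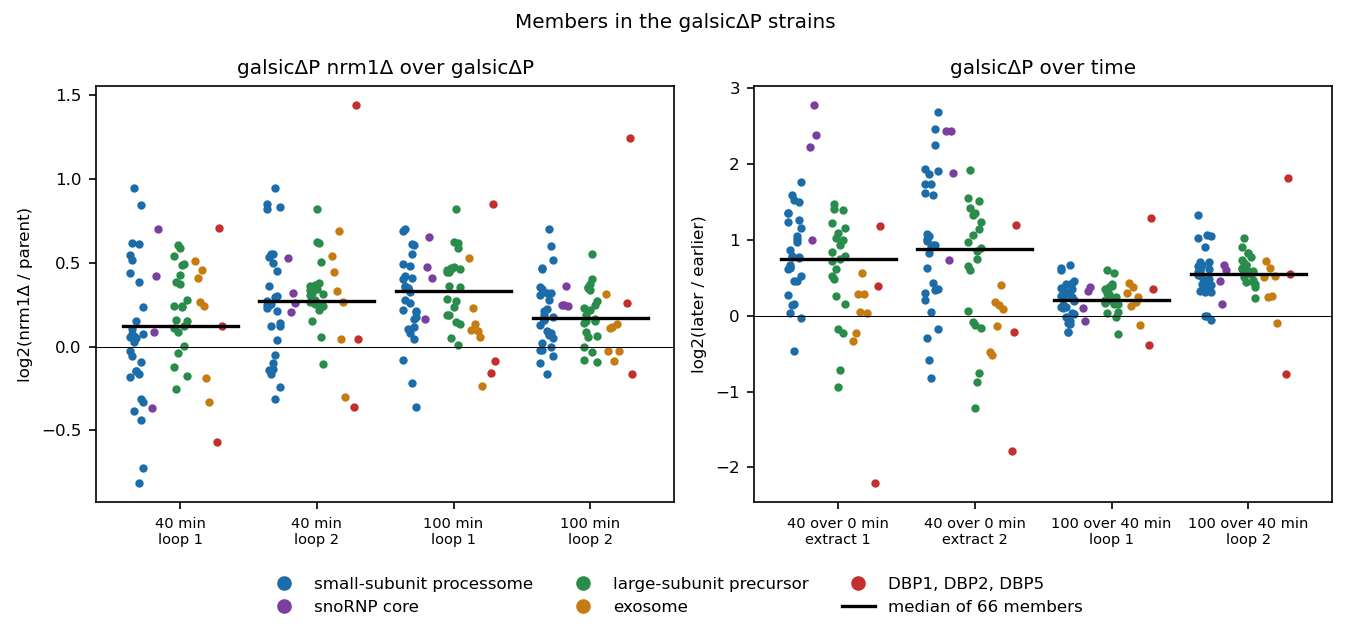
Log2 ratio of each member, coloured by role, in galsicΔP nrm1Δ over galsicΔP for each loop and time (left) and in galsicΔP over its earlier time (right), with the median of the 66 members as a bar. Medians on the left lie between 0.12 and 0.33 with DBP2 at the top of 3 of the 4 columns, and on the right between 0.21 and 0.88 with DBP1 at the bottom.

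The 3 members known mainly for work outside the nucleolus went separate ways. DBP2 (YNL112W), a helicase that packages nuclear messenger RNA, was the lowest of all members in both HU and MMS. Its responses to HU at 30, 45, 60 and 75 min were -0.10, -0.82, -1.09 and -1.25 in replicate 1 and -0.66, -0.79, -1.45 and -1.95 in replicate 2. Its responses to MMS were -0.59, -1.73, -2.36 and -2.21 in replicate 1 and -0.94, -1.89, -2.30 and -3.49 in replicate 2. The means were -1.01 ± 0.11 in HU (adjusted p = 2e-07) and -1.94 ± 0.11 in MMS (adjusted p = 3e-13), a 3.83-fold lower level in MMS. All 8 MMS values were below 0. In HU at 75 min DBP2 had -0.30 and -0.23 in rad53Δ, against -1.25 and -1.95 in wild type, with no overlap.

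DBP5 (YOR046C), the helicase that releases messenger RNA at the nuclear pore, had 0.16, 0.36, 0.63 and 0.22 in replicate 1 and 0.02, 0.39, 0.13 and 0.02 in replicate 2 of MMS at these times. It rose in MMS by 0.24 ± 0.07 (adjusted p = 0.0029) and stood at 0.08 ± 0.07 in HU (adjusted p = 0.4). In rad53Δ it stood at 0.08 ± 0.09 in MMS and -0.04 ± 0.09 in HU, and the strains did not differ past the threshold (difference in MMS -0.03 ± 0.13). DBP1 (YPL119C), a close relative of the translation initiation helicase Ded1, rose by 0.46 ± 0.08 in MMS (adjusted p = 3.9e-05) and 0.23 ± 0.08 in HU (adjusted p = 0.033), and stood at 0.04 ± 0.12 in rad53Δ with MMS. DBP1 was also the lowest member in galsicΔP at 40 over 0 min.

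Over the 32 treated samples of wild type and rad53Δ, each member's responses were correlated with the median of the other members, as a description with no test, since the samples share untreated partners. Of the 66 members, 64 had r of 0.545 or more (median 0.859 over all 66). NOP15 was highest at 0.978, followed by NUG1 at 0.964 and UTP18 at 0.961. DBP5 at -0.157 and DBP1 at -0.413 had the only negative values, while DBP2 was among the rest at 0.855. Below the median were all 7 exosome genes and NOP56 (0.545), NOP10 (0.607) and NOP58 (0.732) of the snoRNP core. Many processome and 60S genes lay below it too, among them RRP14 (0.558), RRP7 (0.575) and UTP22 (0.68).

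In wild type, other ribosome biogenesis genes and RNA polymerase I genes moved in the same direction as the members, while ribosomal protein genes did not stand out in this way. Of 89 other ribosome biogenesis genes, 86 fell in wild-type MMS (median -0.72; background: 30.2%), and 75 fell in HU (median -0.39; background: 17.3%). In rad53Δ, over 30 and 75 min only, 4 of them fell and 2 rose in MMS (median -0.05, background: 4.78% and 8.59%), near or below those shares. The wild-type counts cover 4 times. The strain difference in MMS, over 30 and 75 min in both strains, passed for 44 of these genes, all higher in rad53Δ (background: 3.92%). Of 7 genes of RNA polymerase I subunits, 7 fell in MMS (median -0.76) and 6 in HU (median -0.32). Of 135 ribosomal protein genes, 47 or 34.8% fell in MMS (median -0.13), near the background of 30.2%. In HU 15 or 11.1% fell (median -0.06), below the background of 17.3%. Of 10 genes that regulate ribosome synthesis, 8 fell in MMS (background: 30.2%), a list not split by the direction in which each acts. These lists too were chosen with earlier results of these data known.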

How the data were processed

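The deposited values are log ratios of Cy5 over Cy3 per array, signed and centred near 0 (array medians -0.0257 to 0.0266). The deposited table was taken as log2, and limma is named, with no version, per the submitters' processing notes. Of 6266 probes, 5609 had 1 gene symbol and 657 none in the platform annotation, and probes of a gene were averaged into 6249 features. No filter on dim probes could be made from ratios alone.

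The 61 arrays on 16 slides were solved by least squares into sample levels within each strain set, with a dye term. Levels of 54 samples entered limma 3.58.1 in R 4.3.3, with a term per strain, agent and time and 14 blocks (each replicate and time of wild type and rad53Δ, and each of the 2 galsicΔP loops), leaving 20 residual degrees of freedom and 4.41 of prior. Adjusted p-values are Benjamini-Hochberg over all features of a comparison, with a threshold of 0.05. Fold is 2 to the power of the log2 estimate. Code was tested on simulated data.

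In replicate 2 the samples of one time formed a loop of arrays. In replicate 1 arrays joined successive times of one agent, so treated and untreated samples of a time met only through other samples. Correlations of the deviations of a treated and its untreated sample of the same replicate were -0.302 to 0.406 in wild type, with 6 of 12 below 0, and 0.434 to 0.741 in rad53Δ. They do not show that replicate numbers pair the wild-type samples, and counts without the replicate block stand beside the results they move. The members and lists were chosen with earlier results of these data known. Any member could be named. In each comparison these were the 3 lowest and 3 highest and, for agents, members that stand for each role (UTP10, UTP13, UTP22, NOP1, NOP58, NOP2, NOP7, RRP5, RRP6, RRP4, NOC2, NUG1, DBP1, DBP2, DBP3 and DBP5). Other members are named where a count or role called for them, after their values were seen. The alternatives were other dye terms, scaled arrays, no replicate block, 1 value per replicate and treatment, a fit per strain set, a robust prior, a fit to arrays without the step to samples, probes kept apart, and each replicate or loop left out.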

Additional observations from a re-analysis of the deposited data

Results flagged for a closer look

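Between strains, the test of the difference called 43 of 66 members higher in rad53Δ with MMS (background: 3.92% of all features) and 52 at 75 min (background: 5.52%). With HU it called 1 over both times (background: 1.41%) and 5 at 75 min (background: 4.19%). Between times, 34 members were lower at 75 than at 30 min in HU (background: 4.19%), 56 in MMS (background: 11.3%) and 1, RRP42, in CPT (background: 0.96%). Both counts of 1 lie near their background.

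In galsicΔP nrm1Δ over galsicΔP, 5 members lay on one side of 0 in both loops at 40 min and on the other side in both at 100 min, a difference that was not tested. RRP5 had -0.39 and -0.17 at 40 min, and 0.11 and 0.16 at 100 min. UTP4 had -0.14 and -0.14 at 40 min, and 0.33 and 0.23 at 100 min. NOP6 had -0.16 and -0.05 at 40 min, and 0.41 and 0.28 at 100 min. UTP14 turned the same way, and DBP5 the other way. None of the 5 was called at either time, and the share of all features that turned like this was not counted. No group held 4 samples, so no sample was tested as an outlier.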

How the results depend on the processing

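Of the member medians of 39 comparisons, 5 took both signs under the alternatives. They were wild-type CPT, at 0.0813 without wild-type replicate 2 (-0.209 without replicate 1), CPT at 30, 45 and 60 min, and the strain difference in HU at 30 min. Among the others, the median ran between 0.184 and 0.822 in galsicΔP at 40 over 0 min, 0.112 and 0.24 in galsicΔP nrm1Δ and 0.155 and 0.466 for the strain difference in HU at 75 min. Of 1440 values for named genes, 1312 kept direction and call, 105 lost the call and 23 gained it. Counts of members called moved more. Leaving out 1 replicate or loop gave 33 to 57 members lower in wild-type HU (56 with all), 55 to 59 in MMS, 1 to 9 in CPT and 30 to 32 in MMS against HU. It gave 0 to 0 in rad53Δ HU, 0 to 1 in rad53Δ MMS, 0 to 0 for the strain difference in HU and 2 to 39 in MMS. It gave 11 to 12 higher in galsicΔP nrm1Δ, 41 to 41 in galsicΔP at 40 min and 2 to 24 at 100 min, 8 to 26 for 75 minus 30 min in HU, 41 to 50 in MMS and 0 to 4 in CPT, and 181 to 257 over single times.

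With 1 value per replicate and treatment the counts were 32 in HU, 0 in CPT, 21 for MMS against HU, 2 in rad53Δ HU, 0 for the strain difference in HU and 0 for the CPT time difference. Without the replicate block they were 2 in rad53Δ HU, 2 in rad53Δ MMS, 0 and 10 for the strain difference in HU and MMS, 16 for galsicΔP nrm1Δ, 14 for galsicΔP at 100 min, and 9 and 0 for the time difference in HU and CPT. With arrays scaled to 1 spread they were 0 and 16 for the strain difference in HU and MMS, 0 for galsicΔP nrm1Δ, 6 and 7 for galsicΔP at 40 and 100 min, and 0 for the CPT time difference. With a fit per strain set they were 2 in CPT, 20 in rad53Δ HU, 10 in rad53Δ MMS, 15 for galsicΔP nrm1Δ, 15 for galsicΔP at 100 min, and 20 and 0 for the time difference in HU and CPT. Fitting arrays without the step to samples gave 17 in CPT, 11 in rad53Δ HU, 9 in rad53Δ MMS, 17 for the strain difference in HU, 38 for galsicΔP nrm1Δ and 55 for the HU time difference. Fewer samples or blocks enter several of these fits, and the cause of the other shifts was not tested.

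The dye term changed no value, as each sample carried each dye equally often. The galsicΔP comparison of 40 with 0 min was not run without the first loop, nor were strain differences with a fit per strain set.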

Other observations

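In rad53Δ with MMS, 26 of 135 ribosomal protein genes or 19.3% fell (median -0.18; 4.78% of all features fell), against 47 or 34.8% in wild type with MMS (median -0.13; 30.2% of all features fell). These wild-type values cover more times than those of rad53Δ. Over the same times in both strains, the median of the strain difference was -0.03, where that of the 66 members was 0.56. In galsicΔP nrm1Δ over galsicΔP the ribosomal protein median was -0.06, where 36 of 89 other ribosome biogenesis genes were higher (median 0.29; 14.5% of all features were higher). Between 40 and 100 min in galsicΔP, 16 of 20 stress-induced genes were lower at 100 min (median -1.09; 14.4% of all features were lower).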
